A study of Mus musculus with 23 samples.

Results

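Astrocyte-enriched RNA from crushed spinal cord was compared between mice that received a hydrogel carrying growth factors and mice that had the injury alone. The members are 7 of the 23 libraries of the series. They are 3 libraries of hydrogel with growth factors (title numbers 1685, 1732 and 1687) and 4 of injury alone, called SCI only (9596, 9843, 9874 and 9935). All 7 are HA libraries, that is, RNA precipitated through a hemagglutinin tag on ribosomes (RiboTag). The mice were young adults of the mGFAP-Cre-RiboTag line according to the study design, while the sample labels give the genotype as wild type. Every mouse had a severe crush of the cord at thoracic level 10. Depots were injected 2 days later in the hydrogel group, and the central 3 mm of the lesion was taken at 14 days in both groups. By the series title the depot released FGF and EGF, but the deposited column names call the same group a BDNF and NT3 gel, and this conflict could not be settled.

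Astrocytes take up glutamate, buffer potassium and move water between neurons, synapses and vessels, and after injury they become reactive and form a border around the lesion. FGF and EGF act through receptor tyrosine kinases, which signal through the MAPK and PI3K pathways and switch on feedback inhibitors such as the Sprouty proteins. In the RiboTag system the tag is present only in cells where Cre was active, here under a mouse Gfap promoter, which is also active in some neural stem cells. Precipitates of this kind report the RNA bound to tagged ribosomes, and carry some RNA of other cells along.

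Most counts in these libraries lay on loci that collect ribosomal RNA reads, namely Yam1, Lars2 and the Gm and Mir loci. They took 85.17% to 96.38% of the counts with growth factors and 96.06% to 99.10% with SCI only, and they are left out of everything that follows. Protein-coding counts were 282176 to 1522182 with growth factors and 201838 to 779038 with SCI only. The mean GC content of the transcripts behind the protein-coding counts was 49.71% ± 0.392 with growth factors (SD, n = 3) and 51.54% ± 0.371 with SCI only (n = 4), and the groups did not overlap (two-sided exact permutation test, p = 0.0571, the smallest that 3 against 4 libraries allow). The title numbers of the groups come from separate ranges, and the labels do not say what these ranges stand for. Treatment cannot be told apart from whatever goes with them in any value given here. Labels do not say that each number is a separate animal, so the p-values measure the spread between libraries, which may be technical.

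**Figure D1:**
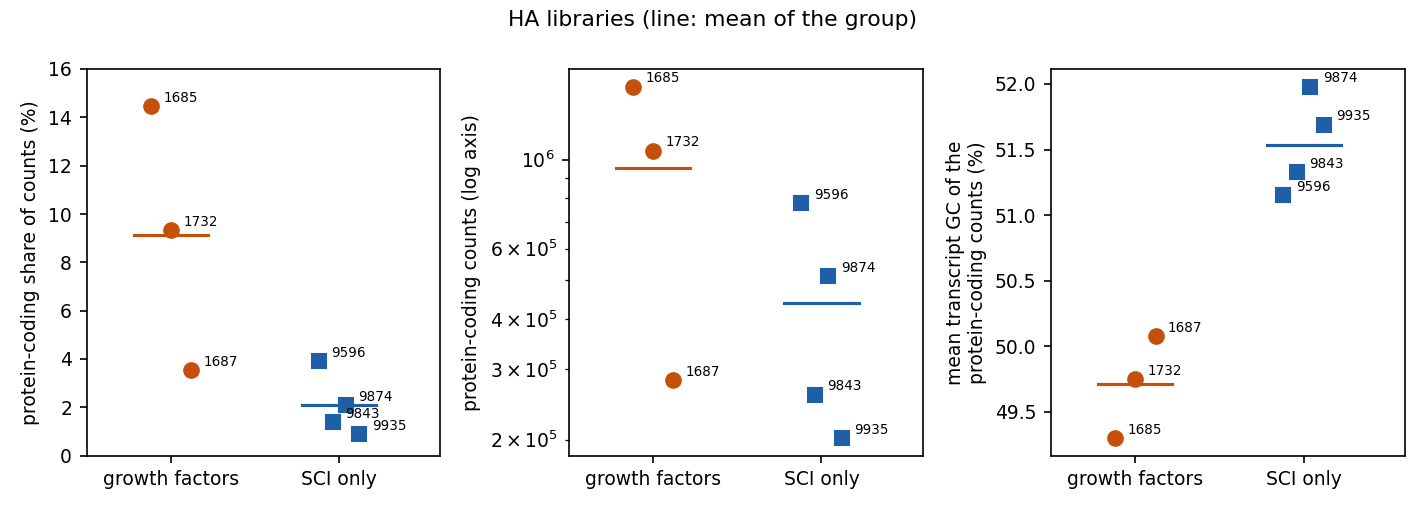
Library measures in HA, hydrogel with growth factors to the left of SCI only: the protein-coding share of all counts (%), the protein-coding counts (log axis) and the mean transcript GC content of these counts (%), with 1 point per library named by its title number and a line at the group mean. Mean GC content lies between 49.30% and 50.08% with growth factors and between 51.15% and 51.98% with SCI only.

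A small set of genes separated the groups, led by the apoptosis inhibitor Mcl1 and including the glutamate transporter Slc1a2, the flavoproteins Etfa and Sdha and the dynein light chain Dynlt3 among the genes that were higher. Of 4541 genes tested with edgeR's quasi-likelihood test, 91 passed a Benjamini-Hochberg adjusted p of 0.05, which is 2.00% of the genes tested. With growth factors 69 genes were higher (1.52%) and 22 lower (0.484%), and 67 and 22 of these are among the 4486 protein-coding genes tested (1.98% in all, 1.49% higher and 0.490% lower). The libraries of the groups did not overlap for 85 of the 91. They did not overlap for 775 of all genes tested either (17.1%), and 973 genes had an unadjusted p under 0.05 (21.4%, 12.2% higher and 9.27% lower). This 21.4% is the background for the gene lists below. DESeq2 called far more of all genes than edgeR, with its count given near the end. Log2 differences are growth factors minus SCI only, and their median over all genes tested was 0.18, with 54.1% of the differences positive. The count of 91 depends on single libraries. Without SCI only library 9596 it was 15, without 9843 it was 10, and without 9874 or 9935 Mcl1 alone passed, while it was 55 without growth factor library 1685. Per-library values below are in CPM (counts scaled by the normalised library size), in the order 1685, 1732, 1687 with growth factors and 9596, 9843, 9874, 9935 with SCI only.

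Mcl1, which blocks apoptosis at the mitochondrial membrane (chromosome 3, 95658788 to 95663176, mm10), had 8039, 6646 and 7909 CPM with growth factors, against 395, 139.5, 52.3 and 189.5 CPM with SCI only. The lowest growth factor library was far above the highest SCI only library, and the 3 growth factor libraries lay close together. Its log2 difference was 5.27 (SE 0.58, adjusted p = 0.000271), and it passed in every alternative fit tried. It was the only one of 4 tested BCL2 family genes to pass. Bax, which promotes apoptosis, had 15.6, 1.25 and 15.6 CPM with growth factors, against 231.4, 127.6, 125.2 and 70.0 CPM with SCI only. These libraries did not overlap, but the log2 difference of -3.71 (SE 1.24) did not pass (adjusted p = 0.106).

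The main glutamate transporter of astrocytes, Slc1a2 (chromosome 2, 102658659 to 102790784), had 24240, 13950 and 8486 CPM with growth factors, against 5636, 4095, 4225 and 5363 CPM with SCI only. The growth factor libraries varied by more than the SCI only libraries yet stayed above all of them (log2 difference 1.69, SE 0.38, adjusted p = 0.0386), and after a correction for GC content Slc1a2 did not pass (adjusted p = 0.0696). Because the measure is bulk RNA of a precipitate, more cells of a type and more RNA per cell cannot be told apart here or in the results that follow.

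Etfa, which encodes 1 of the subunits of the flavoprotein that passes electrons from fatty acid oxidation to the respiratory chain (chromosome 9, 55454508 to 55512243), had 880.7, 548.8 and 171.7 CPM with growth factors, against 10.4, 44.5, 12.7 and 12.4 CPM with SCI only. The spread with growth factors was wide, and the lowest of these libraries was still above every SCI only library (log2 difference 4.77, SE 0.86, adjusted p = 0.0215). Sdha, the flavoprotein subunit of succinate dehydrogenase, had 1307, 1383 and 1600 CPM with growth factors, against 237.6, 353.2, 163.3 and 201.8 CPM with SCI only. Both groups were tight and did not overlap (log2 difference 2.58, SE 0.51, adjusted p = 0.0236). Etfb, the partner subunit of Etfa, had 7.79, 10.0 and 15.6 CPM with growth factors, against 47.9, 74.2, 90.4 and 37.1 CPM with SCI only, and its log2 difference of -2.52 (SE 1.03) did not pass (adjusted p = 0.17).

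Qk, an RNA-binding protein that myelinating glia need, had 6595, 6483 and 2559 CPM with growth factors, against 1767, 1715, 1021 and 1178 CPM with SCI only. Library 1687 was the lowest of its group and still higher than SCI only (log2 difference 1.88, SE 0.38, adjusted p = 0.0236), but Qk did not pass after a correction for GC content (0.97, adjusted p = 0.122). Myelin genes did not all follow it. Mobp, a structural protein of myelin, had 4402, 5983 and 2716 CPM with growth factors, against 3101, 4535, 3558 and 2517 CPM with SCI only, which overlap. Mag, an adhesion protein of myelin, had 445.1, 251.8 and 390.2 CPM with growth factors, against 786.9, 1659, 1549 and 885.6 CPM with SCI only, a log2 difference of -1.75 (SE 0.64) that did not pass (adjusted p = 0.132). Of 12 oligodendrocyte markers tested, 1 rose, none fell, and the median log2 difference was 0.31.

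Several other genes had p-values among the 15 smallest of this direction. Dynlt3, a dynein light chain (chromosome X, 9654267 to 9663003), had 2121, 2739 and 1611 CPM with growth factors, against 289.7, 142.4, 66.6 and 135.9 CPM with SCI only. Cpe, a carboxypeptidase that processes neuropeptides, had 21770, 18390 and 29720 CPM with growth factors, against 8866, 4971, 2096 and 7270 CPM with SCI only. Sppl2a, a protease that cuts within membranes, had 769, 735.5 and 632.1 CPM with growth factors, against 80.2, 32.6, 65.0 and 49.4 CPM with SCI only. None of these sets of libraries overlapped, and the log2 differences were 3.76 (SE 0.60), 2.01 (SE 0.39) and 3.63 (SE 0.61), with adjusted p of 0.0128, 0.0236 and 0.0146. Ssr3, a subunit of the translocon-associated complex of the endoplasmic reticulum, averaged 1505 ± 430 CPM with growth factors (SD, n = 3) and 226.3 ± 99.1 CPM with SCI only (n = 4). The nucleolar protein nucleolin (Ncl) averaged 4943 ± 2091 CPM with growth factors and 890.8 ± 439.3 CPM with SCI only. Fam63b, a deubiquitinase, averaged 2042 ± 1424 CPM with growth factors and 257.8 ± 44.9 CPM with SCI only. Htatsf1, a factor of transcription elongation and splicing, Npas3, a transcription factor of the neural lineage, and Hmgn5, a nucleosome-binding protein, rose by log2 differences of 3.74 (SE 0.70), 3.30 (SE 0.64) and 3.53 (SE 0.71). Adjusted p of these 6 genes ran from 0.0215 to 0.0236.

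**Figure D2:**
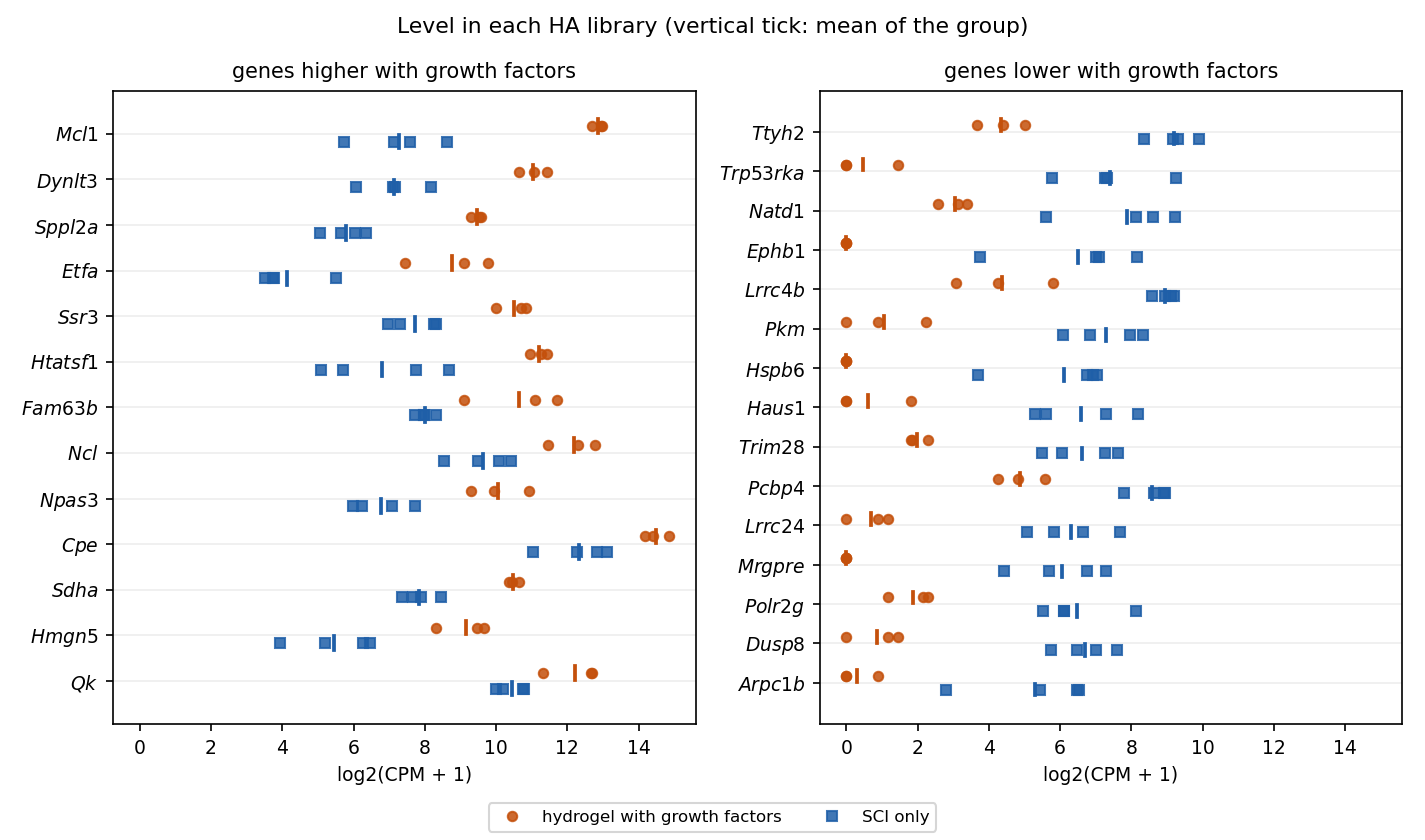
Level of named protein-coding genes among the 15 smallest p-values of each direction, higher in the left panel and lower in the right panel, as log2(CPM + 1) in each of the 7 HA libraries. Circles are hydrogel with growth factors and stand above the squares of SCI only in each row, and vertical ticks are group means. The groups do not overlap for any gene shown, with Mcl1 at 6646 to 8039 CPM with growth factors and 52.3 to 395 CPM with SCI only.

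Genes that fell with growth factors were mostly close to absent in those libraries. Ttyh2, a membrane protein of the tweety family (chromosome 11, 114675431 to 114720977), had 19.9, 31.3 and 11.7 CPM with growth factors, against 325.2, 578.7, 632.6 and 955.6 CPM with SCI only. It was low in all 3 growth factor libraries and high in all 4 SCI only libraries (log2 difference -4.85, SE 0.85, adjusted p = 0.0184). Lrrc4b, a synaptic adhesion protein of the netrin-G ligand family (chromosome 7, 44429018 to 44463351), had 18.2, 7.52 and 54.6 CPM with growth factors, against 384.6, 555, 489.9 and 580.8 CPM with SCI only. The SCI only values were even, and none of the growth factor values came near them (log2 difference -4.30, SE 0.86, adjusted p = 0.0236). Its relative Lrrc4 had 0, 1.25 and 0 CPM with growth factors, against 39.6, 41.5, 49.1 and 90.6 CPM with SCI only (log2 difference -6.65, SE 1.65, adjusted p = 0.0473). These were the only members to pass among 9 synaptic adhesion and scaffold genes tested, whose median log2 difference was -0.05.

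Pkm, the pyruvate kinase of glycolysis (chromosome 9, 59656368 to 59679375), had 0.866, 3.76 and 0 CPM with growth factors, against 246, 112.8, 66.6 and 321.3 CPM with SCI only. Reads of Pkm were thus nearly missing with growth factors and present in every SCI only library (log2 difference -6.65, SE 1.38, adjusted p = 0.0292). Of 14 glycolysis enzymes tested it was the only one to pass, and the median over them was -0.09. Natd1, an acetyltransferase domain protein, had 9.53, 5.01 and 7.80 CPM with growth factors, against 279.3, 47.5, 592.9 and 387.2 CPM with SCI only (log2 difference -5.44, SE 1.06, adjusted p = 0.0236). Trp53rka, one of a pair of nearly identical mouse kinase genes between which reads could be split, had 1.73, 0 and 0 CPM with growth factors, against 159.5, 53.4, 605.6 and 152.4 CPM with SCI only (adjusted p = 0.0215).

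Ephb1, a receptor for ephrins, the small heat shock protein Hspb6 and the receptor Mrgpre had no count in any growth factor library. With the counts of each group pooled, so that deeper libraries weigh more, and set against a floor of 3 counts over the growth factor group, Ephb1 was at least 118-fold lower with growth factors, Hspb6 at least 78.1-fold lower and Mrgpre at least 81.1-fold lower (adjusted p = 0.0236, 0.0331 and 0.0455). The Ephb1 level with SCI only was uneven, at 127.2, 136.5, 282.2 and 12.4 CPM. Of the 4541 genes tested, 27 had no count in the growth factor libraries and 1 had none in the SCI only libraries. Such genes passed the count filter only through the other group, and the groups differ in size, at 3 and 4 libraries. The counts of 27 and 1 therefore do not measure a direction. Detected protein-coding genes numbered 5028 to 6603 in growth factor libraries, against 5799 to 7367 in those of SCI only, which overlap. The gene without a count in SCI only was Wac, which acts in histone ubiquitination. Wac had 341.2, 32.6 and 195.1 CPM with growth factors. With counts pooled it was at least 154-fold higher against a floor of 3 counts over the SCI only group (adjusted p = 0.0314). The corepressor Trim28, the RNA-binding protein Pcbp4, the RNA polymerase subunit Polr2g, the MAPK phosphatase Dusp8, the actin nucleation subunit Arpc1b, the spindle protein Haus1 and Lrrc24 completed the 15 genes. Their log2 differences lay between -7.02 for Haus1 and -3.70 for Pcbp4.

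Of the astrocyte homeostasis genes 11 of 15 tested had a positive difference, against 54.1% of all genes. Of these 15 tested members of a list for glutamate uptake, ion and water homeostasis, 2 rose, among them Slc1a2, and none fell. Their median log2 difference was 1.16, against 0.18 over all genes tested, and the libraries of 6 members lay above SCI only without overlap (background 7.07% in that direction). Slc1a2 no longer passed without growth factor library 1685, where it stood at 1.19 (adjusted p = 0.12). Other members stood just short of the threshold. Gja1, the gap junction protein of astrocytes, had 1325, 1572 and 1767 CPM with growth factors, against 321, 483.7, 363 and 663.2 CPM with SCI only (log2 difference 1.77, SE 0.45, adjusted p = 0.0507). Kcnj10, the potassium channel Kir4.1, had 6455, 5232 and 6399 CPM with growth factors, against 2268, 2769, 2208 and 2854 CPM with SCI only (1.26, SE 0.34, adjusted p = 0.0625). Gja1, Kcnj10 and Glul are named here, and C3 and Cxcl10 further on, after their values were seen. Aqp4, the water channel of astrocyte endfeet, had 6402, 6637 and 2930 CPM with growth factors, against 2433, 2398, 2258 and 2426 CPM with SCI only (1.16, SE 0.35, adjusted p = 0.0852). In all of these genes every growth factor library was above every SCI only library. Glul, the glutamine synthetase, stood apart from them with overlapping libraries, at 2388 to 4433 CPM with growth factors and 2329 to 3765 CPM with SCI only. Over 22 astrocyte markers tested, which share members with this list, 2 rose and the median log2 difference was 0.51. Their summed level was 76140 to 100000 CPM with growth factors and 49620 to 70110 CPM with SCI only.

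Genes of the reactive state did not pass. Gfap, the intermediate filament protein that defines reactive astrocytes, had 12270, 18890 and 26250 CPM with growth factors, against 11300, 13130, 14370 and 21490 CPM with SCI only. The groups overlapped, and the log2 difference was 0.34 (SE 0.30, adjusted p = 0.54). Vim, another intermediate filament, averaged 845.8 ± 168.5 CPM with growth factors and 551.6 ± 238.4 CPM with SCI only (0.61, SE 0.51, adjusted p = 0.517). Serpina3n, a secreted protease inhibitor, had 20010, 9837 and 18640 CPM with growth factors, against 10390, 5597, 7665 and 5445 CPM with SCI only. Its log2 difference of 1.15 (SE 0.38) did not pass (adjusted p = 0.102), and library 1732 lay within the SCI only range. Of 10 tested genes of this kind 0 passed in edgeR or DESeq2, 1 had an unadjusted p under 0.05, and the median was 0.38. The complement factor C3 stood at -0.42 (SE 0.69) and the chemokine Cxcl10 at -1.14 (SE 1.02).

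**Figure D3:**
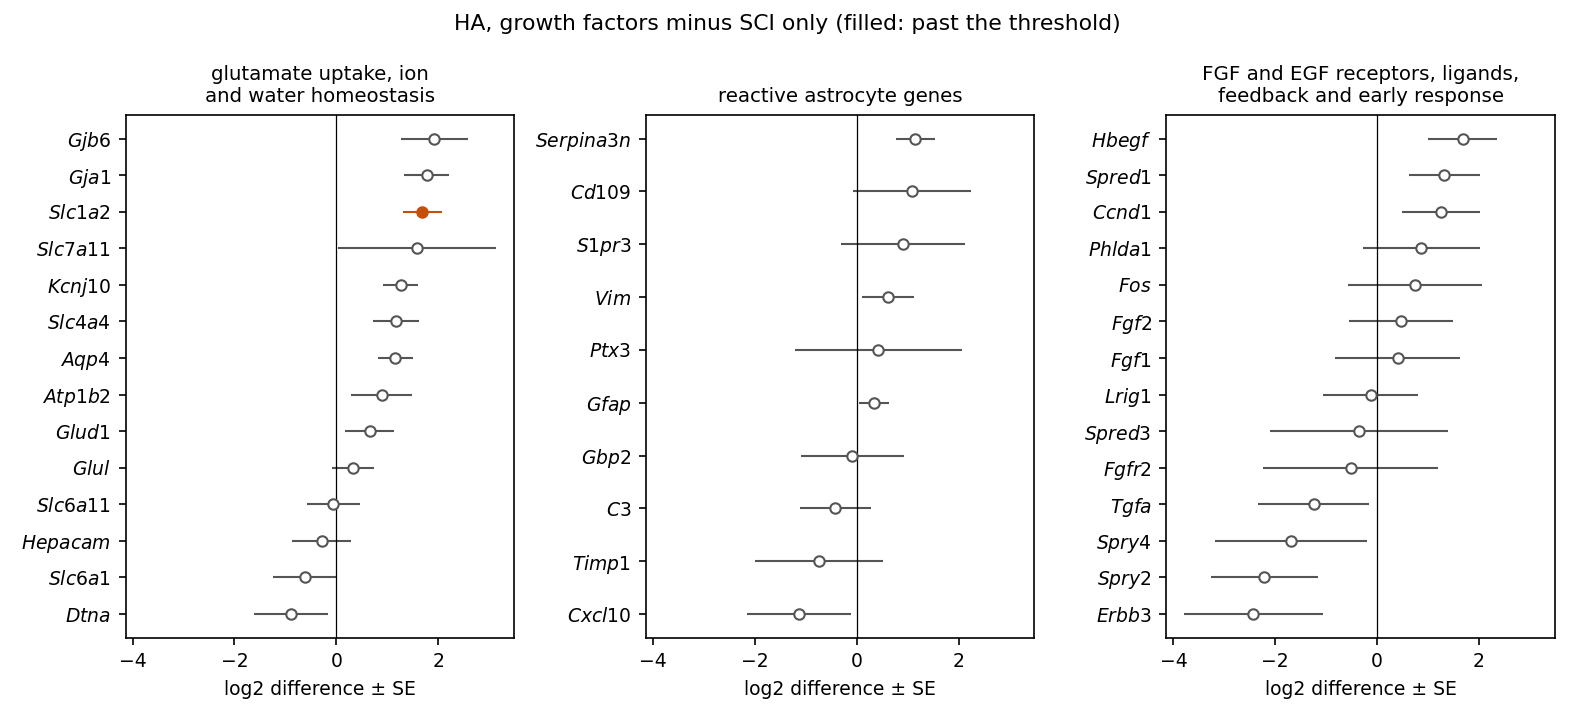
Log2 difference in HA, growth factors minus SCI only, with its standard error, for tested members of the glutamate, ion and water list, of the reactive astrocyte list, and of both FGF and EGF lists. Filled points passed the adjusted threshold, which holds for Slc1a2 at 1.69 and for no other gene shown.

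Receptors, ligands and feedback genes of FGF and EGF were thinly covered. Of 20 receptors and ligands 6 could be tested, 0 passed in edgeR or DESeq2, and 1 had an unadjusted p under 0.05. That gene, Hbegf, an EGF receptor ligand, had 388, 726.7 and 167.8 CPM with growth factors, against 103.2, 83.1, 172.8 and 177.1 CPM with SCI only (1.68, SE 0.68, adjusted p = 0.165). Egfr itself had 8, 2 and 0 counts with growth factors, against 12, 2, 1 and 11 counts with SCI only, too few to be tested. Among 8 tested feedback and early response genes 0 passed in edgeR or DESeq2 and 1 had an unadjusted p under 0.05. Their log2 differences were positive for 4 and negative for 4, with a median of 0.31. Spred1, of this list, stood at 1.32 (SE 0.70, adjusted p = 0.292) with overlapping libraries. Spry2, an inhibitor of receptor tyrosine kinase signalling, had 12.1, 8.77 and 19.5 CPM with growth factors, against 51.1, 44.5, 36.5 and 115.3 CPM with SCI only. All growth factor libraries were below all SCI only libraries, but the log2 difference of -2.22 (SE 1.05) did not pass (adjusted p = 0.231). Spry4, of the same family, stood at -1.69 (SE 1.49, adjusted p = 0.547), and Dusp6, a phosphatase of ERK, had at most 14 counts in a growth factor library and 20 in an SCI only library. The cell cycle gene Ccnd1 had 52.8, 662.8 and 776.4 CPM with growth factors, against 181.4, 359.1, 185.5 and 107.1 CPM with SCI only, so that library 1685 was below all others.

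Downstream components and proliferation genes gave no gene past the threshold either. Of 17 tested MAPK and PI3K components 0 passed in edgeR and 4 had an unadjusted p under 0.05 (background 21.4%). DESeq2, which called more genes in general, called 2 higher and 1 lower. Nras, a small GTPase of the pathway, had 588.9, 1859 and 394.1 CPM with growth factors, against 195.9, 264.1, 128.4 and 65.9 CPM with SCI only (2.53, SE 0.67, adjusted p = 0.0563). Of 11 proliferation genes tested, 0 passed in edgeR or DESeq2 and 0 had an unadjusted p under 0.05. Mki67, a marker of cycling cells, had 34.6, 47.6 and 152.2 CPM with growth factors, against 26.1, 47.5, 144.3 and 4.12 CPM with SCI only, and its standard error of 1.15 around 0.46 spans large changes either way. The neurotrophin receptor Ntrk2 had 1011, 2086 and 838.9 CPM with growth factors, against 956.8, 516.4, 1248 and 527.2 CPM with SCI only. These values overlap, and the log2 difference was 0.69 (SE 0.50, adjusted p = 0.449).

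Matrix and axon growth genes were likewise short of the threshold. Of 8 chondroitin sulfate proteoglycans and tenascins tested, 0 passed in edgeR and 4 had an unadjusted p under 0.05 (background 21.4%). DESeq2 called 1 lower, and the median log2 difference was 1.20. Cspg5, a membrane proteoglycan, had 1690, 484.9 and 2017 CPM with growth factors, against 407.5, 525.3, 612 and 481.9 CPM with SCI only (1.46, SE 0.53, adjusted p = 0.132). Brevican (Bcan) had 361.1, 384.7 and 550.1 CPM with growth factors, against 803.6, 555, 697.6 and 860.9 CPM with SCI only, and tenascin R (Tnr) had 15.6, 61.4 and 7.80 CPM against 191.8, 175.1, 180.7 and 123.6 CPM with SCI only. Both were lower in every growth factor library without passing (adjusted p = 0.401 and 0.14). Among 12 axon growth supporting factors 0 passed in edgeR, 2 had an unadjusted p under 0.05 (background 21.4%), and DESeq2 called 1 in each direction. Mt1 and Mt2, the metallothioneins that bind zinc and copper, averaged 68760 ± 15010 and 48930 ± 15440 CPM with growth factors (SD, n = 3). With SCI only Mt1 and Mt2 averaged 41400 ± 5415 and 28840 ± 1328 CPM (n = 4). Neither overlapped between the groups, and neither passed (log2 differences 0.73, SE 0.23, and 0.76, SE 0.27, adjusted p = 0.0962 and 0.118).

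Of 14 chromatin remodellers and histone modifiers tested, Wac and Atrx rose, against 1.52% of all genes tested. The median log2 difference of the 14 was 1.61, and 1.15 after a correction for GC content. Neither Wac nor Atrx passed after this correction (adjusted p = 0.0629 and 0.0722). Atrx, a chromatin remodeller, had 142.9, 2262 and 483.8 CPM with growth factors, against 70.9, 92.0, 25.4 and 20.6 CPM with SCI only (4.20, SE 0.89, adjusted p = 0.0317). Its growth factor values spanned a wide range above all SCI only values. Of 18 splicing factors and hnRNP genes tested, Htatsf1 and Hnrnpa2b1 rose, and the median was 0.84, and 0.29 after the same correction. Hnrnpa2b1, an RNA-binding protein of mRNA transport, had 4599, 2178 and 405.8 CPM with growth factors, against 535.7, 133.5, 95.1 and 337.8 CPM with SCI only, so library 1687 lay within the SCI only range (3.12, SE 0.71, adjusted p = 0.0386). It did not pass after the correction for GC content (adjusted p = 0.0796).

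One member each rose in several further lists. Eif3a, a translation initiation factor, had 3595, 3205 and 3297 CPM with growth factors, against 866.1, 1294, 329.8 and 576.7 CPM with SCI only (2.13, SE 0.45, adjusted p = 0.0314), 1 of 14 translation factors tested. Cyp51, an enzyme of cholesterol synthesis, had 645.1, 728 and 1369 CPM with growth factors, against 147, 210.7, 28.5 and 65.9 CPM with SCI only (3.01, SE 0.68, adjusted p = 0.0386), 1 of 13 cholesterol and lipoprotein genes. Cldnd1, a claudin domain protein, rose by 4.09 (SE 0.85) beside Ttyh2, which fell, among 6 claudin and tweety genes. Its libraries had 652.9, 865.8 and 50.7 CPM with growth factors, against 35.4, 41.5, 28.5 and 16.5 CPM with SCI only. Rnf141, a ubiquitin ligase, rose by 4.43 (SE 0.93), 1 of 18 ligases and proteasome subunits. It had 2352, 224.3 and 89.7 CPM with growth factors, against 21.9, 44.5, 50.7 and 49.4 CPM with SCI only, so library 1685 stood far above the rest. After the correction for GC content Eif3a, Cyp51, Cldnd1 and Rnf141 did not pass (adjusted p = 0.0789, 0.0696, 0.0657 and 0.0735). Sdha was 1 of 18 nuclear genes of the respiratory chain, Etfa 1 of 11 genes of fatty acid oxidation, and Dynlt3 1 of 16 dynein, dynactin and kinesin subunits. Of 21 cytosolic ribosomal proteins 0 passed in edgeR or DESeq2 and 4 had an unadjusted p under 0.05 (background 21.4%). Of 18 metallothioneins and antioxidant enzymes 0 passed in edgeR, DESeq2 called 1 in each direction and 6 had an unadjusted p under 0.05 (background 21.4%). The 6 immediate early and heat shock genes tested and the 9 antigen presentation and interferon genes tested gave 0 in edgeR and DESeq2, with 1 and 0 at an unadjusted p under 0.05.

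Markers of other cell types were present, and their sums overlapped between the groups for microglia, neurons, oligodendrocytes, oligodendrocyte progenitors and fibroblasts. Summed microglia and macrophage markers reached 1243 to 1546 CPM with growth factors and 899.5 to 7153 CPM with SCI only. Of 10 tested 0 passed in edgeR and 3 had an unadjusted p under 0.05 (background 21.4%). DESeq2 called 1 in each direction, and the median log2 difference was -1.67. The difference was negative for 9 of the 10 and positive for 1, Cx3cr1, while 54.1% of all genes tested had a positive one. Lyz2, the lysozyme of macrophages, had 167.1, 740.5 and 343.3 CPM with growth factors, against 370, 1623, 3020 and 630.2 CPM with SCI only, and Cx3cr1, a receptor of resting microglia, had 252, 67.7 and 495.5 CPM with growth factors, against 14.6, 47.5, 0 and 4.12 CPM with SCI only. Library 9874 was the highest in Lyz2 and at 0 in Cx3cr1. Neuron markers summed to 1223 to 4034 CPM with growth factors and 797.4 to 1246 CPM with SCI only, with 0 of 10 past the threshold in edgeR, 1 called in DESeq2 and 1 at an unadjusted p under 0.05. Oligodendrocyte markers summed to 10040 to 20660 CPM with growth factors and 7233 to 10210 CPM with SCI only, and oligodendrocyte progenitor markers to 4830 to 7217 CPM and 5705 to 7137 CPM. Fibroblast markers summed to 472.8 to 1126 CPM with growth factors and 522.2 to 1089 CPM with SCI only. Endothelial markers and those of lymphocytes and neutrophils reached at most 33.83 and 10.02 CPM in sum in any library, and the endothelial markers Pecam1 and Cldn5 and the lymphocyte marker Cd3e are not listed. The part that other cell types had in the differences of single genes was not tested.

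Direction went with base composition. Genes that rose had a median transcript GC content of 44.70% and genes that fell one of 55.44%, against 49.83% over the 4537 tested genes with an annotated transcript. Across these genes, which are not independent replicates, the log2 difference and GC content had a Pearson r of -0.354 and a Spearman rho of -0.37, and transcript length had an r of 0.014. In the fifth of genes with the lowest GC content the median log2 difference was 0.97, with 32 genes higher and 0 lower. In the fifth with the highest GC content it was -0.76, with 2 higher and 11 lower. The coding regions of 4 of the genes named above are given as examples. They were picked for extreme GC content, so the contrast among them follows from the choice. Shown are the 90 bases at the middle of each coding region as GENCODE M21 annotates it on mm10, 5′ to 3′ on the coding strand, with G and C in capitals. Dynlt3 and Sppl2a have the lowest GC content among the 15 genes with the smallest p-values that rose, and Lrrc4b and Pcbp4 the highest among those that fell.
Dynlt3: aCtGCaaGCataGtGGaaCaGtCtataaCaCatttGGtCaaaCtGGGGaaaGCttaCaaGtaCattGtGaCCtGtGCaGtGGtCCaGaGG
Sppl2a: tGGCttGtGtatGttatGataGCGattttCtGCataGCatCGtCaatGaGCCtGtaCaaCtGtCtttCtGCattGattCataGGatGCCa
Lrrc4b: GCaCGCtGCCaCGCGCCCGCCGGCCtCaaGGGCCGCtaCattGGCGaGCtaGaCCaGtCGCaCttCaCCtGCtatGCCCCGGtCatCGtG
Pcbp4: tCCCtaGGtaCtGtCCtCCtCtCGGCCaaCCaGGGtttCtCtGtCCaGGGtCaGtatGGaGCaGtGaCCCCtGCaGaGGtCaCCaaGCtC

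Over whole transcripts Dynlt3 has a GC content of 38.9% (2176 bases, chromosome X) and Sppl2a of 39.7% (5616 bases, chromosome 2). Lrrc4b has 63.1% (2728 bases, chromosome 7) and Pcbp4 61.7% (2035 bases, chromosome 9). Over the 90 bases printed the shares are 45.6%, 41.1%, 67.8% and 58.9%. When a smooth trend on GC content was removed from each library, 19 genes passed, 15 higher and 4 lower, and 17 of them were among the 91. Of the 30 genes with the smallest p-values, 12 passed after this correction. Among them are Mcl1, Dynlt3, Etfa, Htatsf1, Npas3, Cpe and Sdha, which were higher, and Ttyh2, Trp53rka, Natd1 and Ephb1, which were lower. Mcl1 stood at 5.18 after the correction (adjusted p = 0.000288). Slc1a2 stood at 1.47 (adjusted p = 0.0696), Qk at 0.97 (0.122), Lrrc4b at -2.66 (0.0938) and Pkm at -5.69 (0.0644), and these no longer passed. Sppl2a, Ssr3, Fam63b, Ncl, Hmgn5 and Lrrc4 also no longer passed, at adjusted p from 0.0696 to 0.0841. The median of the glutamate, ion and water list was 0.52 after the correction. What set the GC content of the libraries apart was not tested.

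**Figure D4:**
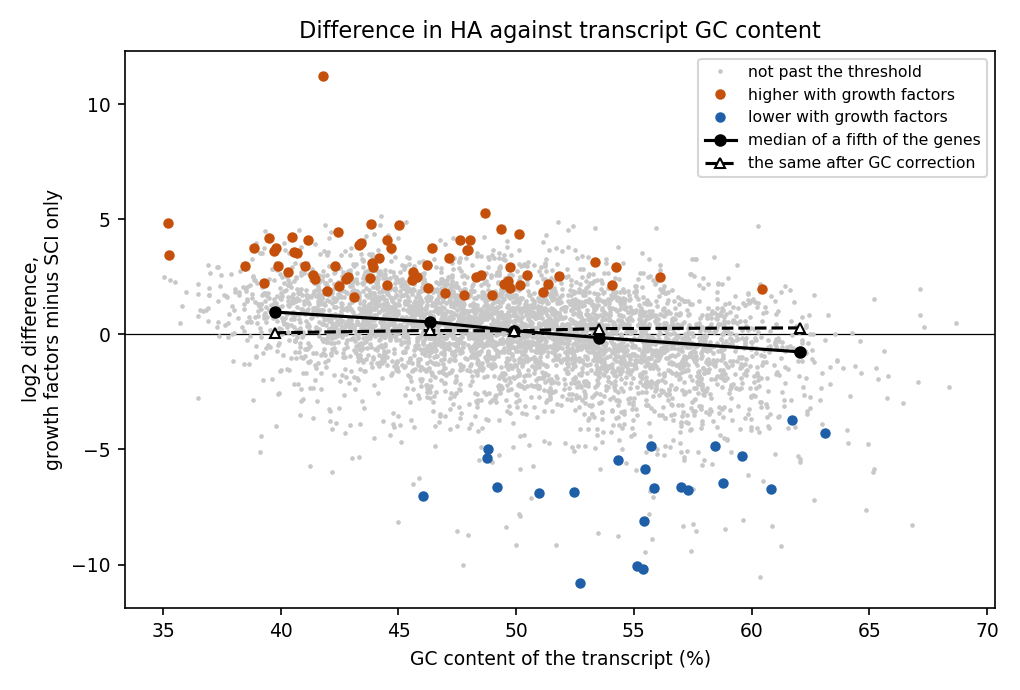
Log2 difference in HA (growth factors minus SCI only) against the GC content of the transcript (%) for the 4537 tested genes with an annotated transcript. Circles mark genes higher or lower with growth factors. The solid line joins the medians of 5 equal groups of genes, which run from 0.97 at low to -0.76 at high GC content, and the dashed line joins the same medians after the GC correction, at 0.07 to 0.28.

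Hydrogel CT libraries, which the labels do not explain further, were in the same fit, with title numbers 1759, 1724 and 1762. Mcl1 averaged 7531 ± 769.4 CPM with growth factors (SD, n = 3), 1591 ± 663.5 CPM with hydrogel CT (n = 3) and 194.1 ± 145.5 CPM with SCI only (n = 4). Each hydrogel CT library was below each growth factor library and above each SCI only library. Slc1a2 averaged 15560 ± 7997 CPM with growth factors and 16020 ± 9782 CPM with hydrogel CT, and its libraries overlapped between both hydrogel groups. So did those of Gja1, Kcnj10 and Aqp4. They averaged 1555, 6029 and 5323 CPM with growth factors and 1601, 4874 and 7460 CPM with hydrogel CT. Their log2 differences between these groups were -0.04 (SE 0.48), 0.31 (SE 0.36) and -0.49 (SE 0.38). Qk averaged 5213 CPM with growth factors and 6798 CPM with hydrogel CT (-0.38, SE 0.40), and Cpe 23290 and 20690 CPM (0.17, SE 0.42). Libraries of both genes overlapped between the hydrogel groups. Dynlt3 averaged 2157 CPM with growth factors and 785.1 CPM with hydrogel CT (1.46, SE 0.62). Natd1 averaged 7.45 ± 2.28 CPM with growth factors, 198.4 ± 114.8 CPM with hydrogel CT and 326.7 ± 227.1 CPM with SCI only. Lrrc4b averaged 26.8 ± 24.7 CPM with growth factors, 37.7 ± 13.4 CPM with hydrogel CT and 502.6 ± 87.5 CPM with SCI only. Between growth factors and hydrogel CT, 0 of 4541 genes passed in edgeR's test and 537 had an unadjusted p under 0.05 (11.8%), and log2 differences were 2.24 for Mcl1 (SE 0.57, adjusted p = 0.242) and -4.72 for Natd1 (SE 1.04, adjusted p = 0.242). Since the growth factor libraries enter both contrasts, the contrasts are not independent of each other.

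**Figure D5:**
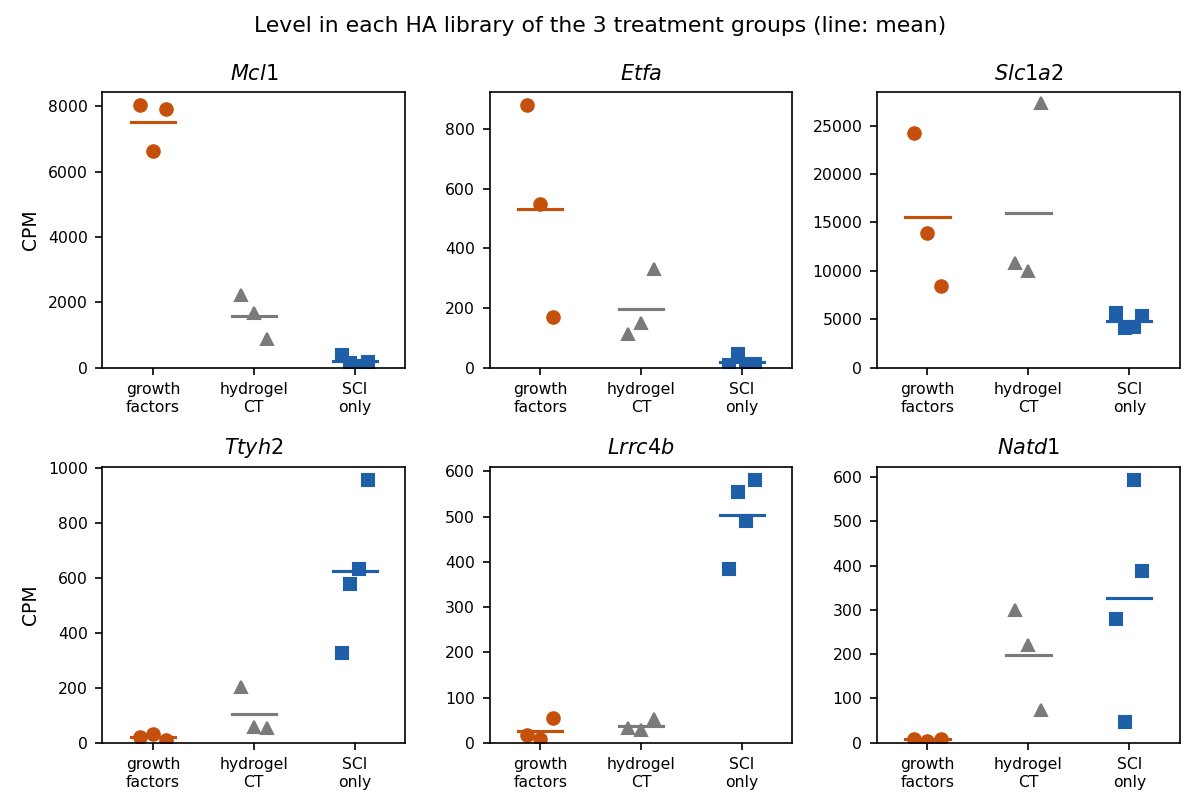
CPM of 6 genes in each HA library of hydrogel with growth factors (circles, n = 3), hydrogel CT (triangles, n = 3) and SCI only (squares, n = 4), with a line at the mean and a separate linear axis from 0 for each gene. Mcl1 has separate levels in the groups, at means of 7531, 1591 and 194.1 CPM, while Slc1a2 has hydrogel CT values that overlap with growth factors.

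Flow-through RNA of the same title numbers, which was not precipitated (FT), gave the same contrast in other RNA of the tissue. Its growth factor libraries held 14630, 115660 and 6434 protein-coding counts, against 254641, 93497, 95901 and 26840 with SCI only. Of 27 of the 30 genes that were tested in both fractions, 0 passed in FT at an adjusted p of 0.05, and over all genes 23 of 4296 did (0.535%). Of the 15 genes higher in HA, 9 had a positive log2 difference in FT, and of 12 lower in HA, 10 had a negative one, while over all 4296 genes 40.5% were positive and 59.5% negative in FT. Mcl1 had 113, 58 and 27 counts in FT with growth factors, against 122, 61, 32 and 7 counts with SCI only. Its log2 difference in FT was 2.59 (SE 0.64, adjusted p = 0.0563), and it differed from that in HA by 2.45 (SE 0.89, adjusted p = 0.276). In the test of the difference between fractions 0 of 4296 genes passed in edgeR, and 531 had an unadjusted p under 0.05 (12.4%). With the title number as a block, 8 genes passed (0.186%), among them Sppl2a at 5.07 (SE 1.14, adjusted p = 0.0232) and Ephb1 at -9.80 (SE 2.27, adjusted p = 0.0343). Of the genes that passed in HA, Sppl2a and Ephb1 were the ones whose difference between the fractions passed with the block. The other 6 of these 8 genes did not pass in HA.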

How the data were processed

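RNA of 23 libraries was amplified before sequencing, per the labels' protocols, and CASAVA 1.8.2, edgeR and the build mm10 are named in the submitters' processing notes. For the aligner, the counting tool, the annotation and the strand setting, the sources used here give nothing. The deposited tables hold raw read counts per transcript, and the authors' log2 fold changes and p-values, per the file headers. The authors' deposited table gives Mcl1 a log2 fold change of 5.27 and a false discovery rate of 1.74e-12, and has 409 transcripts past a rate of 0.05.

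Counts were summed per gene symbol. The transcript identifiers of 99.6% of the rows with a symbol matched GENCODE M21. Rows without a symbol held at most 0.101% of a library. Ribosomal-RNA-read loci were removed. Genes kept by filterByExpr (minimum count 10 on the 7 libraries) were tested two-sided with edgeR 4.0.16 in R 4.3.3 (TMM, quasi-likelihood), with all 10 HA libraries in the fit. Benjamini-Hochberg adjustment ran over all genes tested, with a threshold of 0.05. The common biological coefficient of variation was 0.90 and the median standard error of a log2 difference 1.07, so that only large changes could pass. CPM uses the scaled library size without these loci and is not corrected for length, so levels are not compared between genes. Reads of genes with near-identical copies, such as Pkm, Calm2, Eef1a1 and ribosomal proteins, may be split or lost.

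Each library was counted as a separate sample. Pairs of one group differed by more than sampling noise (chi-square per degree of freedom 12.5 to 123). Separately amplified libraries of the same tissue could differ so too, so this does not show that they are separate animals. Named genes are the 15 protein-coding genes with the smallest p in each direction, and of each list its called members, the 2 with the highest CPM and the 2 with the smallest p. Gfap, Vim, Aqp4, Egfr, Ntrk2, Spry4, Dusp6 and Mki67 are named whatever their values. A few genes that meet this rule are not reported here, though they are included in all counts. The 7 libraries, the gene lists and the rule were chosen with earlier results of these data known. Growth factor and SCI only libraries share no title number. HA and FT of a number come from the same tissue as inferred from the study design, but deviations of same-numbered libraries from their group means correlated at 0.000774 to 0.0868 only. The fits were also run on simulated counts, and the outcome is not given here. Alternatives were DESeq2 1.42.0 as test and as scaling, other filters, GC and length corrections, a fit of the 2 groups alone, and leaving out each library. The tables hold 45 per-sample columns that were not used.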

Additional observations from a re-analysis of the deposited data

Results flagged for a closer look

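Single SCI only libraries lay far from the other 3 in 2 of the genes named above, out of 44 sets of values examined in groups of 4 libraries. Chance flags about 1 such set in 20. The CPM of Etfa in SCI only reached 44.5 in library 9843, against 10.4 to 12.7 in the other SCI only libraries. The CPM of Polr2g in SCI only reached 279 in library 9874, against 45.3 to 68.3 in the others. With growth factors Etfa had 171.7 to 880.7 CPM and Polr2g 1.25 to 3.90 CPM, so neither library met the other group.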

How the results depend on the processing

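The 91 genes past the threshold became 552 with DESeq2 (257 higher, 295 lower), 23 with the 2 groups alone in the fit (17 and 6) and 19 after the GC correction (15 and 4). Without a filter on low counts 9 genes were lower, and with a mean of at least 5 CPM 7 were. Leaving out 1 library at a time gave 1 to 129 genes, 1 to 117 higher and 0 to 25 lower. Without the most shallow library of each group, an alternative chosen after seeing the data, 37 passed (34 and 3). The cause of these shifts was not tested. All 30 genes with the smallest p-values kept their sign wherever they could be tested, and Mcl1 passed in every alternative. DESeq2 size factors, the loci kept, protein-coding genes alone and the length correction gave counts within 1.5 times. For the difference between HA and FT, 0 genes passed in the unpaired fit and 8 with the replicate block on title number, 5 without a filter, and 0 to 20 when 1 number was left out (20 without 1685, 8 without 1732). Since no pair correlated above 0.1, the numbers are not shown to pair the libraries, although 6 of 7 HA libraries correlated best with FT of the same number. No paired fit of growth factors against SCI only within HA was possible because these groups share no number. FT libraries held few counts, which limits that contrast.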

Other observations

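The noncoding RNA Malat1, a nuclear transcript (chromosome 19, 5795690 to 5802672), had 20020, 7128 and 12540 CPM with growth factors, against 2350, 5903, 2162 and 1907 CPM with SCI only, a log2 difference of 2.10 (SE 0.48, adjusted p = 0.0386, edgeR). Every growth factor library was above every SCI only library. The lincRNA 1700020I14Rik had 714.4, 1069 and 994.9 CPM with growth factors, against 147, 115.7, 136.3 and 70.0 CPM with SCI only, a log2 difference of 2.97 (SE 0.58, adjusted p = 0.0236). After the correction for GC content neither passed, with Malat1 at 1.30 (adjusted p = 0.145) and 1700020I14Rik at 1.95 (adjusted p = 0.105).

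Of the 69 genes that were higher with growth factors 8 lie on the X chromosome (11.6%), as does 1 of the 22 that were lower (4.55%), against 111 of all 4541 genes tested (2.44%). Those that were higher include Dynlt3, Htatsf1, Hmgn5 and Atrx, described above, and Uprt, Lamp2 and Tbl1x. Lamp2, a lysosomal membrane protein, had 2874, 372.1 and 288.7 CPM with growth factors, against 140.7, 103.9, 139.5 and 8.24 CPM with SCI only (log2 difference 3.57, SE 0.87, adjusted p = 0.0473, edgeR). Uprt, Lamp2 and Tbl1x did not pass after the correction for GC content (adjusted p = 0.0749, 0.147 and 0.0942). Xist, the RNA of the inactive X chromosome, had 3532, 127 and 19 counts with growth factors, against 83, 64, 6 and 1 counts with SCI only, so that library 1685 stood far above the other 6. These genes were picked out after their values were seen, and the part of sex or of GC content in them was not tested.

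Some other genes past the threshold are given here, also chosen after their values were seen. Etnppl, a lyase known from astrocytes, had 980.3, 610.2 and 1026 CPM with growth factors, against 198, 59.4, 49.1 and 37.1 CPM with SCI only (log2 difference 3.32, SE 0.75, adjusted p = 0.0386). Abat, which breaks down GABA, had 1838, 814.4 and 1904 CPM with growth factors, against 414.8, 388.8, 179.1 and 399.5 CPM with SCI only (2.14, SE 0.53, adjusted p = 0.0473). Neither gene overlapped between the groups. Clic1, a chloride intracellular channel protein, had 0, 2.51 and 0 CPM with growth factors, against 58.4, 59.4, 55.5 and 57.7 CPM with SCI only, values that were the same in all 4 SCI only libraries within a few CPM (log2 difference -5.83, SE 1.47, adjusted p = 0.0498). Etnppl, Abat and Clic1 did not pass after the correction for GC content (adjusted p = 0.0722, 0.0696 and 0.0861).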
